A study of Mus musculus with 8 samples.

Results

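*Klf5*, the 4 Tead genes *Tead1*, *Tead2*, *Tead3* and *Tead4*, their coactivator gene *Yap1*, and the Yap target genes *Ccn1* and *Ccn2* were followed in spatial transcriptomes of the embryonic mouse diaphragm. These 8 genes were taken by their symbols from the 19465 genes of the probe set, and all 8 were found. Gene expression was measured with Visium, a slide of barcoded spots 55 µm wide and 100 µm apart, on 5 µm sections of fixed and paraffin-embedded tissue from 8 embryos' diaphragms. RNA was read through pairs of gene-specific probes and counted as unique molecular identifiers (UMIs). Because each gene has its own probes, levels were compared between sections and regions but not between genes.

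The control group held 3 sections at E14.5 and 2 at E18.5, from embryos that kept at least 1 functional allele of CaV1.1 and of β-catenin. The CaV1.1 KO group held 1 section at E14.5 and 1 at E18.5, and these dysgenic embryos lack the voltage-gated calcium channel of skeletal muscle, so that their muscles do not contract. The β-cat cKO group held 1 section at E18.5, in which β-catenin was deleted by a Cre under the human skeletal actin promoter, which acts in muscle fibers only. A mutant group of 1 section has no replicate of its own, and its tests took the spread from the controls and assume that it varies as they do. Spots hold several cells and often several tissues. A lower level can therefore come from fewer cells of a type or from less RNA per cell, which cannot be told apart here.

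TEAD proteins are DNA-binding factors that activate genes only with a partner, of which Yap1 and Taz are the best known. The Hippo kinases phosphorylate Yap1 and keep it out of the nucleus, and mechanical load on cells is a known regulator of this step. *Ccn1* and *Ccn2* encode secreted matrix-associated proteins and are textbook Yap targets, with *Ccn2* also known from tendon and fibrous tissue. *Klf5* encodes a zinc finger transcription factor known from epithelia, smooth muscle and differentiating muscle cells, and *Tead4* is the family member best known from myoblast differentiation.

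In the mouse build GRCm38.p6, *Klf5* (ENSMUSG00000005148) lies at chr14:99298691-99313412 and *Yap1* (ENSMUSG00000053110) at chr9:7931999-8004638. The Tead genes are spread over chr7:112679356-112906784 (*Tead1*, ENSMUSG00000055320), chr7:45215792-45233468 (*Tead2*, ENSMUSG00000030796), chr17:28331671-28350805 (*Tead3*, ENSMUSG00000002249) and chr6:128227143-128300813 (*Tead4*, ENSMUSG00000030353). *Ccn1* (ENSMUSG00000028195) lies at chr3:145646971-145649985 and *Ccn2* (ENSMUSG00000019997) at chr10:24595442-24598683. RefSeq promoter sequences of this build were matched for 4 of the 8 genes, *Tead2*, *Tead3*, *Yap1* and *Ccn1*. They were searched on both strands for CATTCC, the core letters of the TEAD binding motif, which read GGAATG when the motif lies on the opposite strand. Of all 32851 promoter windows of 250 bases before a start, 12.6% held it. Below are the windows of *Ccn1*, the Yap target of this set with a promoter sequence, of *Yap1*, its coactivator, and of *Tead2*, the Tead gene that changed most with age, each 5′ to 3′ along the gene with the motif in capitals.
Ccn1, chr3:145649986-145650235, minus strand: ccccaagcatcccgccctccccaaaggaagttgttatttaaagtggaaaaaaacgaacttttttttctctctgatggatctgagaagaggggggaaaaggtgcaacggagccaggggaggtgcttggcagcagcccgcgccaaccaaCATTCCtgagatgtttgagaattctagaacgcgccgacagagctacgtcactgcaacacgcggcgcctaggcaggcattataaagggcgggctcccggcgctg
Yap1, chr9:8004597-8004846, minus strand: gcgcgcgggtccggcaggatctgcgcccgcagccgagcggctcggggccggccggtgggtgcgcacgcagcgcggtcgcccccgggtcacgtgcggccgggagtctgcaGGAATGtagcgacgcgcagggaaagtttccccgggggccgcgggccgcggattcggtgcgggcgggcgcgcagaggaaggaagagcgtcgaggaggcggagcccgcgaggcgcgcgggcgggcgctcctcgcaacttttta
Tead2, chr7:45215542-45215791, plus strand: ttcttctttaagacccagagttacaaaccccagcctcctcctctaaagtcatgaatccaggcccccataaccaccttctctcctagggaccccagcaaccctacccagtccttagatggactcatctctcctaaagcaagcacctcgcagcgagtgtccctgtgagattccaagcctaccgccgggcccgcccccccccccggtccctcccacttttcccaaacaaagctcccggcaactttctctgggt
In the *Ccn1* window the match began 103 bases before the start on the gene's own strand, and in the *Yap1* window 141 bases before the start on the other strand. *Tead3* held matches in 2 of its 3 windows, and the *Tead2* window held none. These matches describe letters in a window and not binding.

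Muscle spots were those with high signal of 9 sarcomere genes. They made up 55 to 89.4% of the kept spots of a section and held 12835167 to 75800909 UMIs. The summed sarcomere signal in these spots ranged from 16235 to 27362 CPM (counts scaled to a total of 1000000 per section) in the E14.5 sections and from 71384 to 131917 in the E18.5 sections. In the other spots of the controls it was 5636 to 8681 CPM at E14.5 and 47828 and 31869 at E18.5. The latter lie above the muscle spots of every E14.5 section. Spots outside muscle thus also hold muscle, and muscle against other spots is not an alike contrast at both stages. Levels of the 8 genes are given as normalized CPM, that is, CPM scaled between sections by edgeR's TMM method. In muscle spots *Klf5* rested on 959 to 3163 UMIs per section, and *Ccn2*, at its sparsest, on 243. *Cacna1s*, the gene of the channel, read 13.4 normalized CPM in the KO and 15 to 18.4 in controls at E14.5, and 29.7 in the KO against 84.3 and 87.3 in controls at E18.5. *Ctnnb1*, the gene of β-catenin, read 96.2 in the cKO and 104.6 and 97.4 in the E18.5 controls. Where the probes lie relative to the lesions is not known and spots also hold non-muscle cells, so these levels do not check the labels.

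The first comparison asked which of the genes mark muscle within the section. In E14.5 controls, *Tead4* stood at 139.3, 106.9 and 125.2 normalized CPM in muscle spots and at 48.2, 33.4 and 32.8 in the other spots. All 3 sections were thus higher in muscle without overlap, by 1.67 ± 0.13 (SE) on the log2 scale (edgeR adjusted p = 0.000162). At E18.5 it stood at 82.7 and 77 in muscle against 29.0 and 16.9 outside, a difference of 1.83 ± 0.16 (edgeR adjusted p = 8.94e-05). This ratio was the largest among the 4 Tead genes at both stages. *Tead1*, a broadly expressed Tead gene, was higher in muscle by 0.52 ± 0.07 at E14.5 and by 1.02 ± 0.09 at E18.5. *Tead2*, known from embryonic tissues, was higher in muscle at E14.5 only by the test (0.42 ± 0.07, edgeR adjusted p = 0.00327), and at E18.5 differed by -0.14 ± 0.09 (adjusted p = 0.218). The change of this difference between stages was not tested. *Tead3* differed by -0.24 ± 0.10 and -0.21 ± 0.12, short of the threshold at both stages.

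*Klf5* was higher in muscle by 0.84 ± 0.10 at E14.5 (83.1, 68.6 and 68.5 against 47.8, 39.0 and 34.6 normalized CPM, edgeR adjusted p = 0.000661). At E18.5 the values were 51.2 and 63.2 in muscle and 43.1 and 39.3 outside, a difference of 0.47 ± 0.11 (adjusted p = 0.0102) that turned to -0.24 without TMM scaling and to -0.06 when spots at the top and bottom of the muscle signal were compared. *Yap1* read nearly alike in and outside muscle at E14.5 (0.08 ± 0.07, adjusted p = 0.418) and was higher in muscle by 0.75 ± 0.09 at E18.5, a call lost without TMM scaling (0.05, adjusted p = 0.642). The targets went the other way. *Ccn2* was lower in muscle by -0.61 ± 0.10 at E14.5 and by -1.69 ± 0.10 at E18.5, where muscle held 99.7 and 161.0 and the other spots 332.5 and 499.6 normalized CPM. *Ccn1* was lower in muscle at E14.5 (-0.76 ± 0.16, edgeR adjusted p = 0.00850) and short of the threshold at E18.5 (-0.39 ± 0.17, adjusted p = 0.0854). In all, 6 of the 8 genes passed the test at E14.5, where 37.4% of 15473 genes tested did, and 5 of 8 at E18.5, where 53.2% did.

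Muscle spots were then summed per section to compare stages and genotypes. Between E14.5 and E18.5, *Ccn1* and *Ccn2* rose and *Tead2* fell by the widest margins. *Ccn2* read 18.3, 18.3 and 15.3 normalized CPM in the E14.5 controls and 86.5 and 137.3 in the E18.5 controls, a 6.43-fold rise (log2 2.69 ± 0.19, edgeR adjusted p = 1.28e-05). *Ccn1* read 33.2, 33.5 and 28.3 at E14.5 and 124.9 and 185.9 at E18.5, a 4.89-fold rise (log2 2.29 ± 0.16, edgeR adjusted p = 1.38e-05). For both targets the stages did not overlap, although the 2 E18.5 controls lay far apart, with SDs of 35.9 and 43.2 around means of 111.9 and 155.4.

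The Tead genes moved in different directions with age. *Tead2* read 231.5, 206.2 and 204.9 at E14.5 and 45.4 and 40.8 at E18.5, a 4.97-fold fall (log2 -2.31 ± 0.10, edgeR adjusted p = 1.81e-06). *Tead4* read 122.9, 92.8 and 110.1 at E14.5 and 71.8 and 65.7 at E18.5 (log2 -0.66 ± 0.12, edgeR adjusted p = 0.00196). *Tead1* read 161.1, 148.3 and 150.8 at E14.5 and 202.3 and 192.2 at E18.5 (log2 0.36 ± 0.08, adjusted p = 0.00597). Its groups did not overlap, but this rise became a fall of log2 -0.36 when counts were scaled to total UMIs alone. *Tead3* overlapped between stages, with 31.2, 32.8 and 35.2 against 29.9 and 38.4 (log2 0.05 ± 0.12, adjusted p = 0.749). *Yap1* read 177.0, 165.3 and 178.2 at E14.5 and 199.4 and 205.1 at E18.5 (log2 0.22 ± 0.09, adjusted p = 0.0499), at the edge of the threshold. That call was lost on leaving out any single control (adjusted p of 0.0505 to 0.178) and turned to log2 -0.50 without TMM scaling. *Klf5* read 73.3, 59.6 and 60.2 at E14.5 and 44.4 and 53.9 at E18.5 (log2 -0.39 ± 0.12, adjusted p = 0.0251), a call lost without E14.5 control 1 (adjusted p = 0.0583) or E18.5 control 1 (0.136).

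In all, 7 of the 8 genes passed the test between stages, where 65.6% of 14832 genes tested did. Directions between stages depend on the scaling, and the summed sarcomere signal given above rose with age. The median of all genes moved from -0.01 to -0.73 (log2) without TMM scaling, and to -3.19 when sections were scaled to the 9 sarcomere genes. The split of called genes, 4930 higher and 4796 lower, became 2259 and 9033 in the former and 209 and 13998 in the latter. In the muscle and region comparisons together, 34 values of the 8 genes passed the test, and under sarcomere-gene scaling 6 of these reversed, among them the rises of *Ccn1*, *Ccn2*, *Tead1* and *Yap1* with age. Another scaling shifts all genes of a section alike, so differences relative to the median of all genes hardly move with it, and directions are read here relative to that median.

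**Figure D1:**
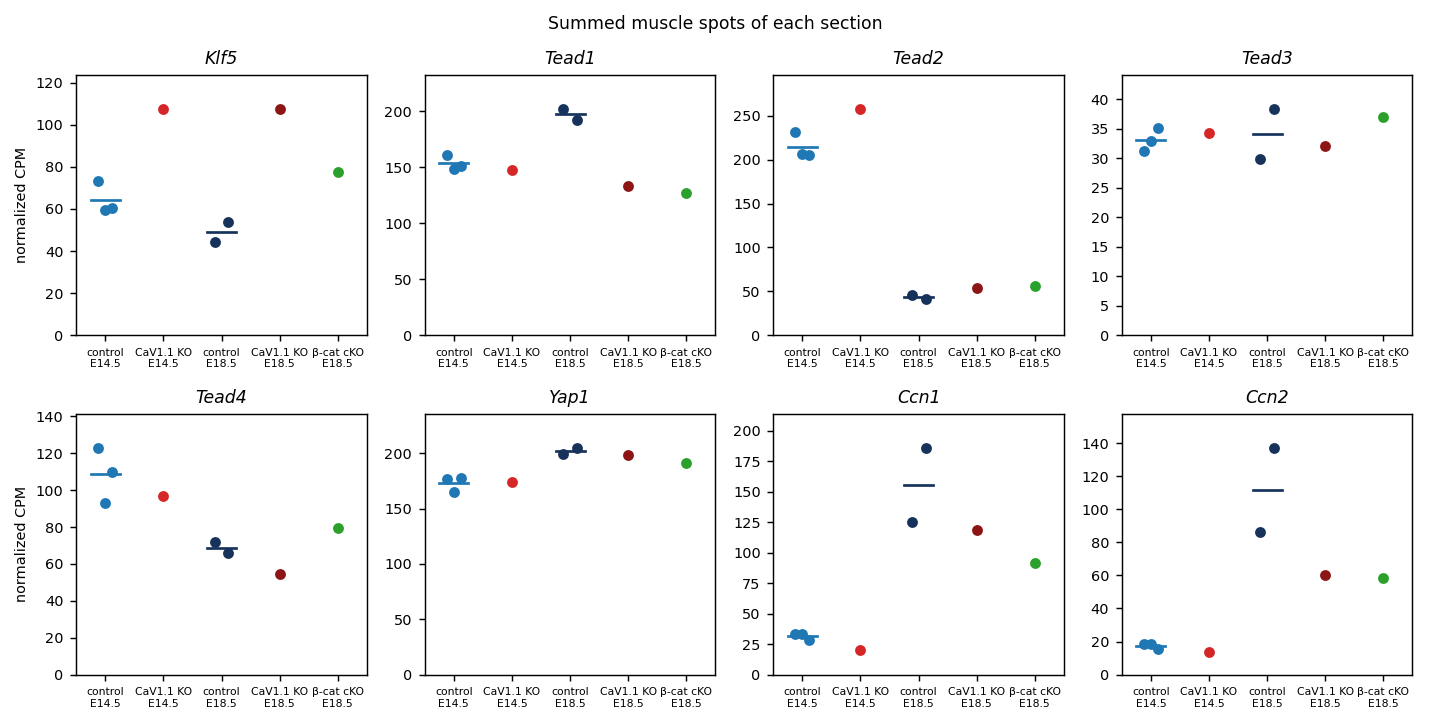
Normalized CPM of the 8 genes (y axis, linear, from 0) in the summed muscle spots of each section, with a point per section, colors for the 5 groups and a horizontal bar at the mean of the control groups. *Klf5* in the KO sections (107.5 at E14.5 and 107.7 at E18.5) lies above every control (44.4 to 73.3), *Tead2* falls from over 200 at E14.5 to under 60 at E18.5, and *Ccn1* and *Ccn2* rise with age.

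The CaV1.1 KO sections carried more *Klf5* in muscle than any control. At E18.5 the KO held 107.7 normalized CPM against 44.4 and 53.9 in the controls, a 2.19-fold difference (log2 1.13 ± 0.16, edgeR adjusted p = 0.00369). This call held in 17 of 17 alternative settings, with log2 values of 0.97 to 2.54. At E14.5 the KO held 107.5 against 73.3, 59.6 and 60.2 (log2 0.74 ± 0.15, edgeR adjusted p = 0.0565), short of the threshold, and it passed in 9 of 17 alternatives. *Klf5* in the KO sections was thus nearly equal at both stages, whereas the controls fell. The difference between the KO effects at E18.5 and E14.5 was 0.39 ± 0.23 (edgeR adjusted p = 0.317), so a change of the effect with age was not shown.

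*Tead1* read 133.5 in the E18.5 KO, below both controls (202.3 and 192.2), by log2 -0.56 ± 0.12 (edgeR adjusted p = 0.0130). That difference was -0.02 without TMM scaling and reversed to 0.84 under sarcomere-gene scaling, so its sign depends on how sections are scaled. The median of all genes rose under both scalings, and relative to it *Tead1* stayed lower. *Ccn2* read 60.1 against 86.5 and 137.3 (log2 -0.90 ± 0.26, adjusted p = 0.0404), a call that held in 8 of 17 alternatives only and was lost on leaving out any of the 3 E14.5 controls (adjusted p of 0.0522 to 0.0663). *Ccn1* (118.7 against 124.9 and 185.9), *Tead2* (54.0 against 45.4 and 40.8), *Tead3* (32.1), *Tead4* (54.7 against 71.8 and 65.7) and *Yap1* (199.0 against 199.4 and 205.1) did not pass. *Yap1* read the same as the controls under TMM scaling but higher by 0.52 without it, where the median of all genes rose by about as much. In all, 3 of the 8 genes passed at E18.5, where 25.7% of genes did, and 0 of 8 at E14.5, where 2.08% did. Without adjustment 2 of 8 (*Klf5* and *Ccn1*) were under 0.05 at E14.5, as were 2443 of all 14832 genes. DESeq2 also called 2 of the 8. At E14.5 the values other than *Klf5* lay within 0.67 of 0 on the log2 scale, with *Ccn1* lowest at 20.04 against 28.3 to 33.5 normalized CPM (log2 -0.67 ± 0.23, adjusted p = 0.205).

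Cells other than muscle differed between these sections too. In the muscle spots of the E18.5 KO, all 5 Schwann cell markers were higher by the edgeR test, with a summed level of 109.7 CPM against 24.6 and 23.6 in the controls, among them *Sox10* (16.9 against 1.5 and 2.8). Mesothelial markers summed to 233.2 CPM against 47.9 and 149.6, with 1 of 6 higher by the test. Smooth muscle markers were lower, 3 of 4 by the test, at 189.3 CPM against 307.6 and 312.5, as were endothelial markers, 5 of 6 by the test, at 514.0 CPM against 621.4 and 567.2. The summed sarcomere signal itself was 71384 CPM against 128417 and 131917. The part of these differences in the *Klf5* result was not tested.

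Muscle spots of the β-cat cKO also read more *Klf5* and less *Tead1* than the E18.5 controls. *Klf5* stood at 77.3 normalized CPM against 44.4 and 53.9 (log2 0.65 ± 0.16, edgeR adjusted p = 0.0474), and this call held in 11 of 17 alternatives. It was lost without E14.5 control 2 (adjusted p = 0.0612), without E14.5 control 3 (0.0922), without E18.5 control 1 (log2 0.52, adjusted p = 0.0954) and within E18.5 sections alone (0.0513). *Tead1* stood at 127.1 against 202.3 and 192.2 (log2 -0.63 ± 0.12, edgeR adjusted p = 0.020), which held in 14 of 17 alternatives and was lost on leaving out E14.5 control 3 (adjusted p = 0.0548) and under sarcomere-gene scaling (log2 -0.11, adjusted p = 0.740). *Ccn1* (91.8 against 124.9 and 185.9, log2 -0.76 ± 0.22, adjusted p = 0.0789) and *Ccn2* (58.7 against 86.5 and 137.3, log2 -0.93 ± 0.26, adjusted p = 0.0657) lay below both controls but did not pass. *Tead2* (56.2), *Tead3* (37.0), *Tead4* (79.6) and *Yap1* (191.6) did not pass either. In all 2 of 8 passed, where 8.8% of genes did.

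Smooth muscle markers summed to 567.9 CPM in muscle spots of the cKO against 307.6 and 312.5 in the E18.5 controls, with 1 of 4 higher by the edgeR test, and endothelial markers to 435.3 against 621.4 and 567.2, with 0 of 6 called. Their part in the *Klf5* and *Tead1* results was not tested. Keratin transcripts of stratified epithelium were present in this section and nearly absent from the others. *Krt4*, a keratin of such epithelia, read 137.9 CPM in muscle spots of the cKO and at most 2.42 in the other 7 sections. In the 227 of its 1577 muscle spots without a UMI of *Krt4*, *Krt5*, *Krt13* or *Krt15*, *Klf5* was higher than in controls by 0.76 (log2, a subset chosen after the data were seen, edgeR adjusted p = 0.0420). In muscle spots over 210 µm from any spot outside muscle it was higher by 0.73 (adjusted p = 0.0606), although *Krt4* still read 59.6 CPM in those spots of the cKO and at most 2.46 in the other sections, and the same spots in the E18.5 KO gave 1.49 (adjusted p = 0.00482). The KO and cKO at E18.5 were also set against each other. None of the 8 genes passed that test, where 7.3% of genes did, with *Klf5* at 0.48 ± 0.19 (adjusted p = 0.166) and *Tead4* at -0.54 ± 0.19 (adjusted p = 0.130). Nor did any in the comparison of KO effects between stages, where 6.4% of genes did. Without adjustment 2 and 1 of the 8 were under 0.05 in these comparisons, as were 3832 and 3896 of all 14832 genes. DESeq2 called 0 and 1 of the 8. Both mutants share the same controls, so their values are given side by side only.

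**Figure D2:**
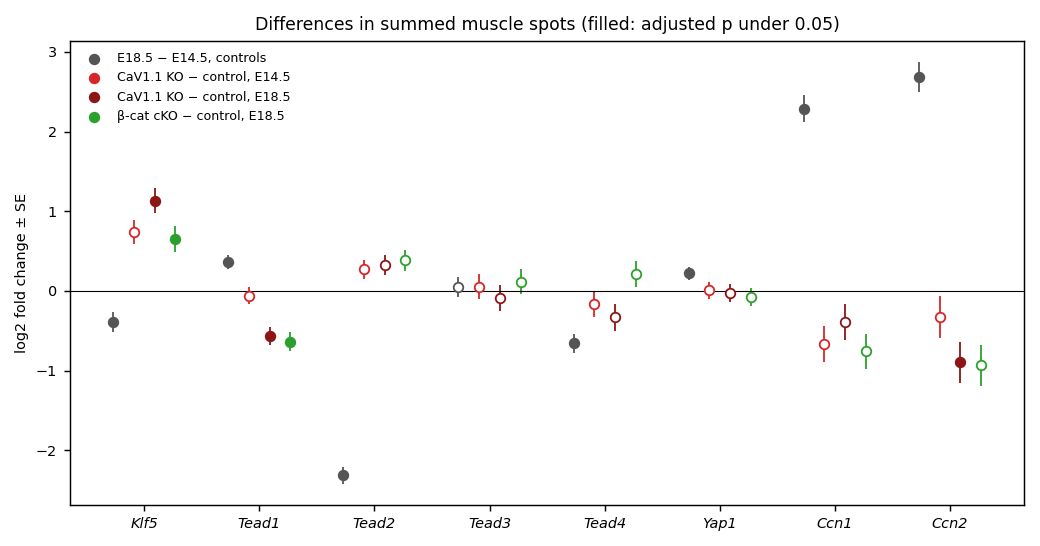
Log2 fold changes (y axis) ± SE of the 8 genes in summed muscle spots for 4 comparisons, which are E18.5 minus E14.5 in controls and the 3 mutant sections minus the controls of their stage. Filled points passed the edgeR test at an adjusted p under 0.05. *Klf5* is above 0 in all 3 mutant sections (0.74, 1.13 and 0.65) and *Tead1* below 0 in both E18.5 mutants (-0.56 and -0.63).

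Along the fibers, position was read from 12 genes that were left out of the gene counts given for the region tests. The muscle center, where nerves contact the fibers, was taken as the 15% of muscle spots with the highest signal of 8 endplate genes. The periphery, where fibers join tendon, was the 15% with the highest signal of 4 myotendinous genes. In controls, *Tead1* and *Tead4* were higher in the center and *Klf5* and *Ccn2* higher at the periphery.

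*Klf5* at E18.5 read 30.5 and 40.0 normalized CPM in the center, 37.8 and 48.5 between and 86.3 and 95.6 at the periphery. Center minus periphery was -1.38 ± 0.09 (log2, edgeR adjusted p = 8.30e-14), negative in both sections and past the threshold in 14 of 14 alternatives. At E14.5 the center held 71.3, 59.4 and 67.7 and the periphery 105.9, 75.6 and 63.6, so that control 3 went the other way. The difference was -0.33 ± 0.09 (adjusted p = 0.00525), and it was lost in 5 of 14 alternatives, among them without E14.5 control 1 (-0.20, adjusted p = 0.247) or control 2 (-0.32, adjusted p = 0.0745) and with regions set by distance (-0.03, adjusted p = 0.922). The stages themselves differed by -1.04 ± 0.13 (edgeR adjusted p = 6.36e-07).

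*Tead4* ran in the opposite direction. At E14.5 it read 167.4, 130.5 and 147.6 in the center and 96.5, 76.0 and 91.3 at the periphery, which did not overlap (0.76 ± 0.06, edgeR adjusted p = 3.20e-11). At E18.5 the center held 74.6 and 67.5 and the periphery 66.7 and 55.5, a smaller difference of 0.21 ± 0.07 (adjusted p = 0.0234) that was lost without either E18.5 control (adjusted p = 0.0821 and 0.376). The change between stages was -0.55 ± 0.09 (edgeR adjusted p = 0.000114). *Tead1* was higher in the center of all 5 control sections, at 187.1, 168.4 and 165.8 against 129.1, 136.5 and 135.7 at E14.5 (0.37 ± 0.06, adjusted p = 1.69e-05) and 228.1 and 211.2 against 170.5 and 145.7 at E18.5 (0.47 ± 0.06, adjusted p = 9.98e-08). *Tead3* was lower in the center at E18.5 (28.1 and 31.7 against 36.8 and 47.0, -0.48 ± 0.10, adjusted p = 0.000392). *Tead2* and *Yap1* showed no regional difference that passed, with center minus periphery between -0.06 and 0.15.

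The targets were peripheral, *Ccn2* at both stages and *Ccn1* at E14.5. *Ccn2* at E18.5 read 57.1 and 78.9 in the center and 233.6 and 407.7 at the periphery (-2.21 ± 0.08, edgeR adjusted p = 9.91e-21), and at E14.5 8.3, 12 and 13 against 47.1, 34.4 and 26.4 (-1.74 ± 0.17, adjusted p = 1.39e-09). *Ccn1* at E14.5 read 22.6, 24.4 and 19.9 against 46.1, 39.6 and 32.7 (-0.81 ± 0.11, adjusted p = 5.92e-07). At E18.5 *Ccn1* was level, with 131.8 and 185.6 against 128.8 and 197.9 (-0.03 ± 0.06, adjusted p = 0.761), and the stages differed by 0.78 ± 0.12 (edgeR adjusted p = 3.46e-05). In each stage 5 of the 8 genes passed, where 20.4% of 14158 genes did at E14.5 and 20.8% at E18.5, and 4 of 8 differed between stages, where 8.13% did. Tendon markers marked the same spots, since all 6 were lower in the center at both stages. The paper cautions that RNA of tendon cells dilutes muscle RNA where muscle meets tendon. It adds that most of its myogenic genes rising toward the periphery were not high in the central tendon. It therefore does not ascribe their gradients to RNA of tendon cells. The part of tendon in the *Ccn2*, *Klf5*, *Tead1* and *Tead4* differences was not tested.

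**Figure D3:**
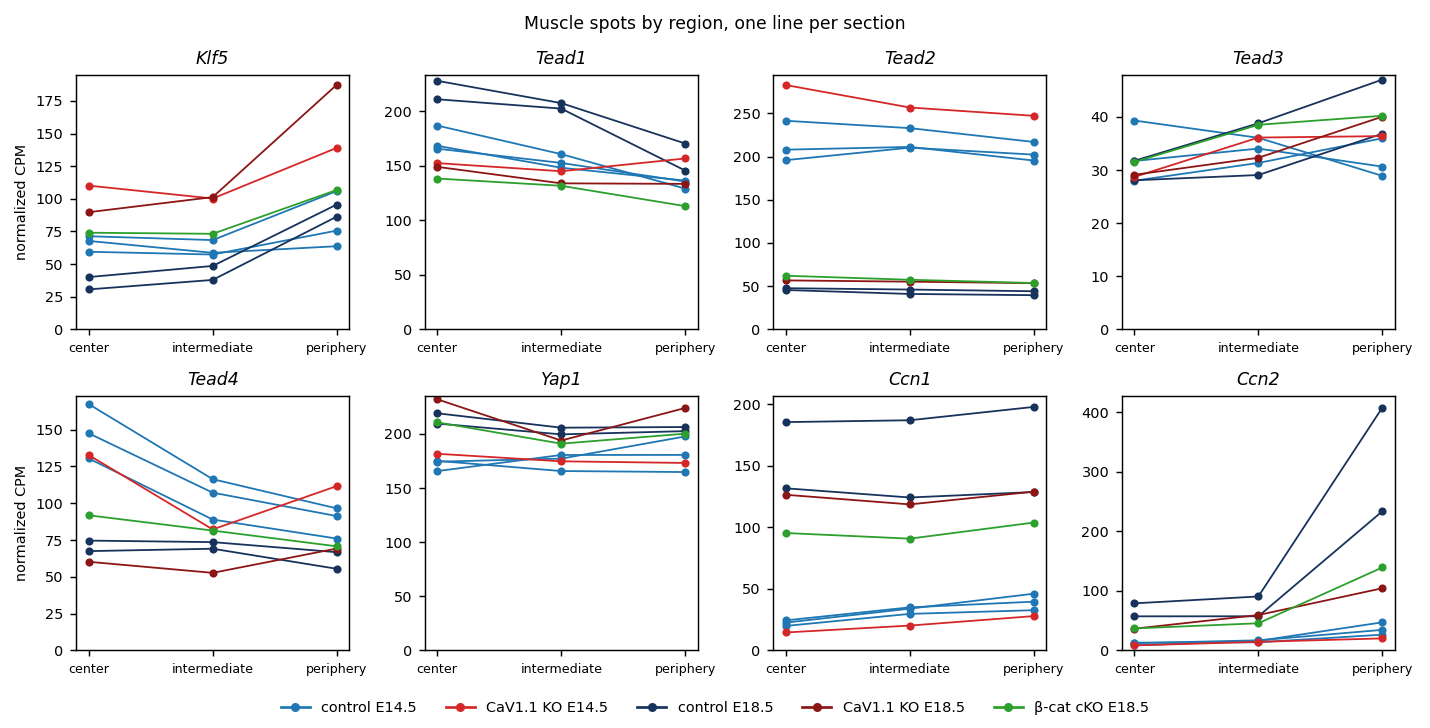
Normalized CPM (y axes, linear, from 0) of the 8 genes in the summed center, intermediate and peripheral muscle spots, with a line per section and colors for the 5 groups. *Klf5* rises from center to periphery in the E18.5 controls (30.5 to 86.3 and 40.0 to 95.6), *Tead4* falls in the E14.5 controls, and *Ccn2* reaches 233.6 and 407.7 at the periphery of the E18.5 controls.

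In the mutants the peripheral *Ccn2* remained. Center minus periphery was -1.27 ± 0.33 in the E14.5 KO (8.3 against 20.1 normalized CPM), -1.52 ± 0.22 in the E18.5 KO (36.4 against 104.3) and -1.92 ± 0.14 in the cKO (36.8 against 139.2), all past the edgeR threshold. *Klf5* read 89.7 in the center and 187.4 at the periphery of the E18.5 KO (-1.06 ± 0.15, edgeR adjusted p = 1.57e-05), 74.0 and 106.8 in the cKO (-0.53 ± 0.12, adjusted p = 0.00233) and 110.1 and 139.0 in the E14.5 KO (-0.34 ± 0.12, adjusted p = 0.0961). The difference of *Klf5* between center and periphery was smaller in the cKO than in the E18.5 controls by 0.85 ± 0.15 (edgeR adjusted p = 0.00130), the only one of the 8 genes to pass in that test, where 1.24% of genes did. In the E18.5 KO the same test gave 0.32 ± 0.18 (adjusted p = 0.607), where 0.593% of genes passed. These tests of the regional difference between genotypes were added after the regional values were seen. The paper reports that in the E18.5 KO *Chrna1* and *Musk* spread through the muscle instead of staying central. A score of endplate genes thus need not mark the center of the fibers in that section.

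*Tead4* was higher in the center of the cKO (91.8 against 70.7, 0.38 ± 0.10, adjusted p = 0.0108) and did not pass in the KO sections, where the center held 132.8 and 60.2 and the periphery 111.7 and 69.2. Its regional difference was smaller in the E14.5 KO than in the controls by -0.51 ± 0.12, short of the threshold (edgeR adjusted p = 0.0640), where 0.141% of genes passed. *Tead1* passed in the cKO only (0.29 ± 0.09, adjusted p = 0.0428), and *Ccn1* in the E14.5 KO only (-0.94 ± 0.21, adjusted p = 0.00426). Counts of the 8 genes past the threshold were 2 in the E14.5 KO, 2 in the E18.5 KO and 4 in the cKO, where 5.14%, 2.49% and 10.7% of genes passed.

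Distance to the nearest spot outside muscle gave a second reading of position that uses no marker of endplate or myotendinous junction. Moving inward through bins of up to 110, 110 to 210, 210 to 310 and over 310 µm, *Klf5* went from 68.4 to 40.3, 29.4 and 25.2 CPM in E18.5 control 1 and from 62.7 to 63.3, 48.2 and 32.6 in control 2. In the 3 E14.5 controls the outermost and innermost bins read 89.4 and 84.5, 69.2 and 71.5, and 78.1 and 72.5. In the cKO *Klf5* went from 92.8 to 73.6, 57.6 and 54.6. In the E18.5 KO it read 123.1, 102.0, 102.6 and 120.6. The innermost bin thus lay below the outermost in the cKO and both controls, while both read nearly alike in the KO. With regions set by this distance, center minus periphery of *Klf5* in the E18.5 KO was 0.28 (edgeR adjusted p = 0.364) rather than -1.06, and it differed from the controls by 1.09 ± 0.22 (adjusted p = 0.0113), while the cKO differed by 0.37 ± 0.21 (adjusted p = 0.675). Which mutant differed from the controls in the position of *Klf5* thus depended on how position was read.

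*Ccn2* was lower in the innermost than in the outermost bin of all 8 sections. It went from 203.5 to 38.6 CPM and from 335.2 to 62.6 between the outermost and innermost bins of the E18.5 controls, from 93.7 to 38.7 in the KO and from 82.2 to 35.7 in the cKO. By distance its gradient was shallower than in the controls in the KO (difference of center minus periphery 1.0 ± 0.21, edgeR adjusted p = 0.0118) and in the cKO (1.22 ± 0.16, adjusted p = 0.000173). With regions set by endplate and myotendinous genes neither difference passed (0.69 ± 0.25, adjusted p = 0.298 in the KO, and 0.29 ± 0.17, adjusted p = 0.626 in the cKO), so for *Ccn2* too the call depended on how position was read. *Tead4* was higher in the innermost bin of the 3 E14.5 controls, going from 112.5 to 183.1, from 102.6 to 134.9 and from 105.9 to 139.1 CPM. *Yap1* changed little, from 158.7 to 142.3 and from 171.6 to 146.3 in the E18.5 controls. Distance is to the nearest non-muscle spot, which need not be the rim of the diaphragm. The center by distance was the innermost 15% of each section, so its depth differed between sections. The median distance of muscle spots was 173 µm in the E18.5 KO, 265 in the cKO and 436 and 529 in the E18.5 controls. The part of depth in the *Klf5* and *Ccn2* differences was not tested.

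**Figure D4:**
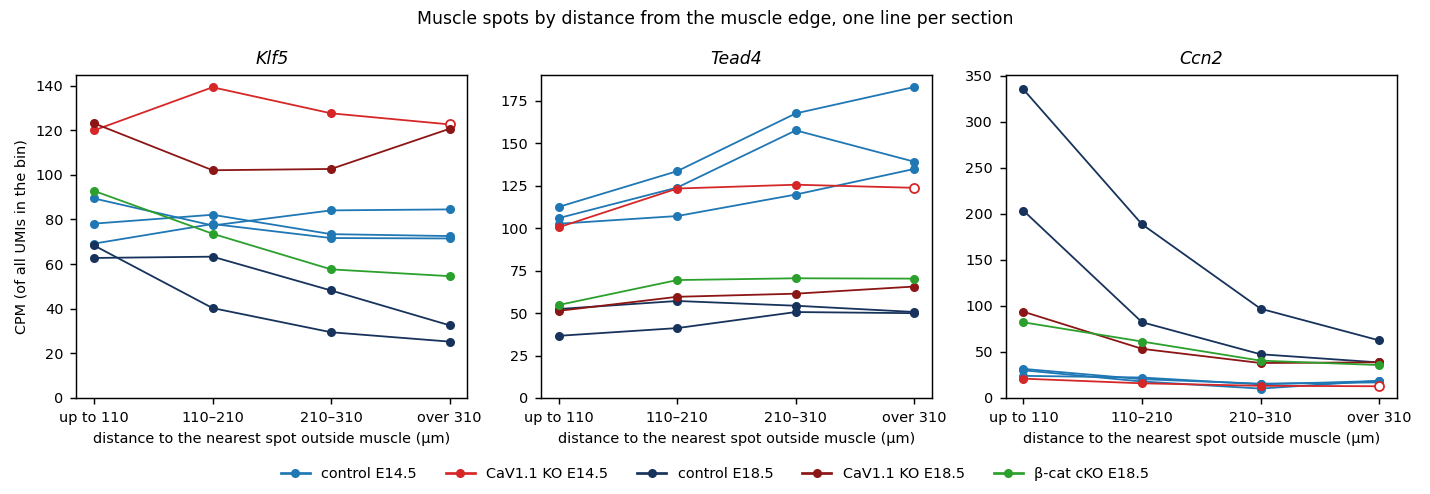
CPM of *Klf5*, *Tead4* and *Ccn2* (y axes, linear, from 0) in muscle spots grouped by distance in µm to the nearest spot outside muscle, with a line per section. The open marker is a bin of 14 spots in the E14.5 KO. *Klf5* lies between 102.0 and 123.1 in the E18.5 KO and ends at 25.2 and 32.6 in the E18.5 controls.

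Outside muscle, *Klf5* separated the cKO from every other section. Its level in the other spots was 296.0 normalized CPM in the cKO, 78.6 and 37.4 in the KO sections at E18.5 and E14.5, and 34.6 to 47.8 in the controls. Much of the highest signal lay in a strip. Of 2157 kept spots in the cKO, 99 held over 400 CPM and at least 5 UMIs of *Klf5*, 97 of them outside muscle, while the E18.5 KO had 24 such spots, all in muscle (15 peripheral and 9 intermediate), and the remaining 6 sections had 0 to 3 each. These limits were set after the values were seen. In the 97 spots the genes with the highest ratio to the other 483 non-muscle spots included *Krt13*, a keratin of stratified epithelium, at 3339 against 112.2 CPM, *Elf3*, an epithelial transcription factor, at 502.1 against 14.1, and *Sprr3*, a cornified envelope gene, at 1159 against 37.4. *Klf5* itself read 848.3 CPM in the 97 spots and 104.7 in the other 483, which was also above the non-muscle spots of the remaining 7 sections (41.4 to 90.8 CPM before TMM scaling). Because the spots were chosen by *Klf5*, these are descriptions with no test.

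**Figure D5:**
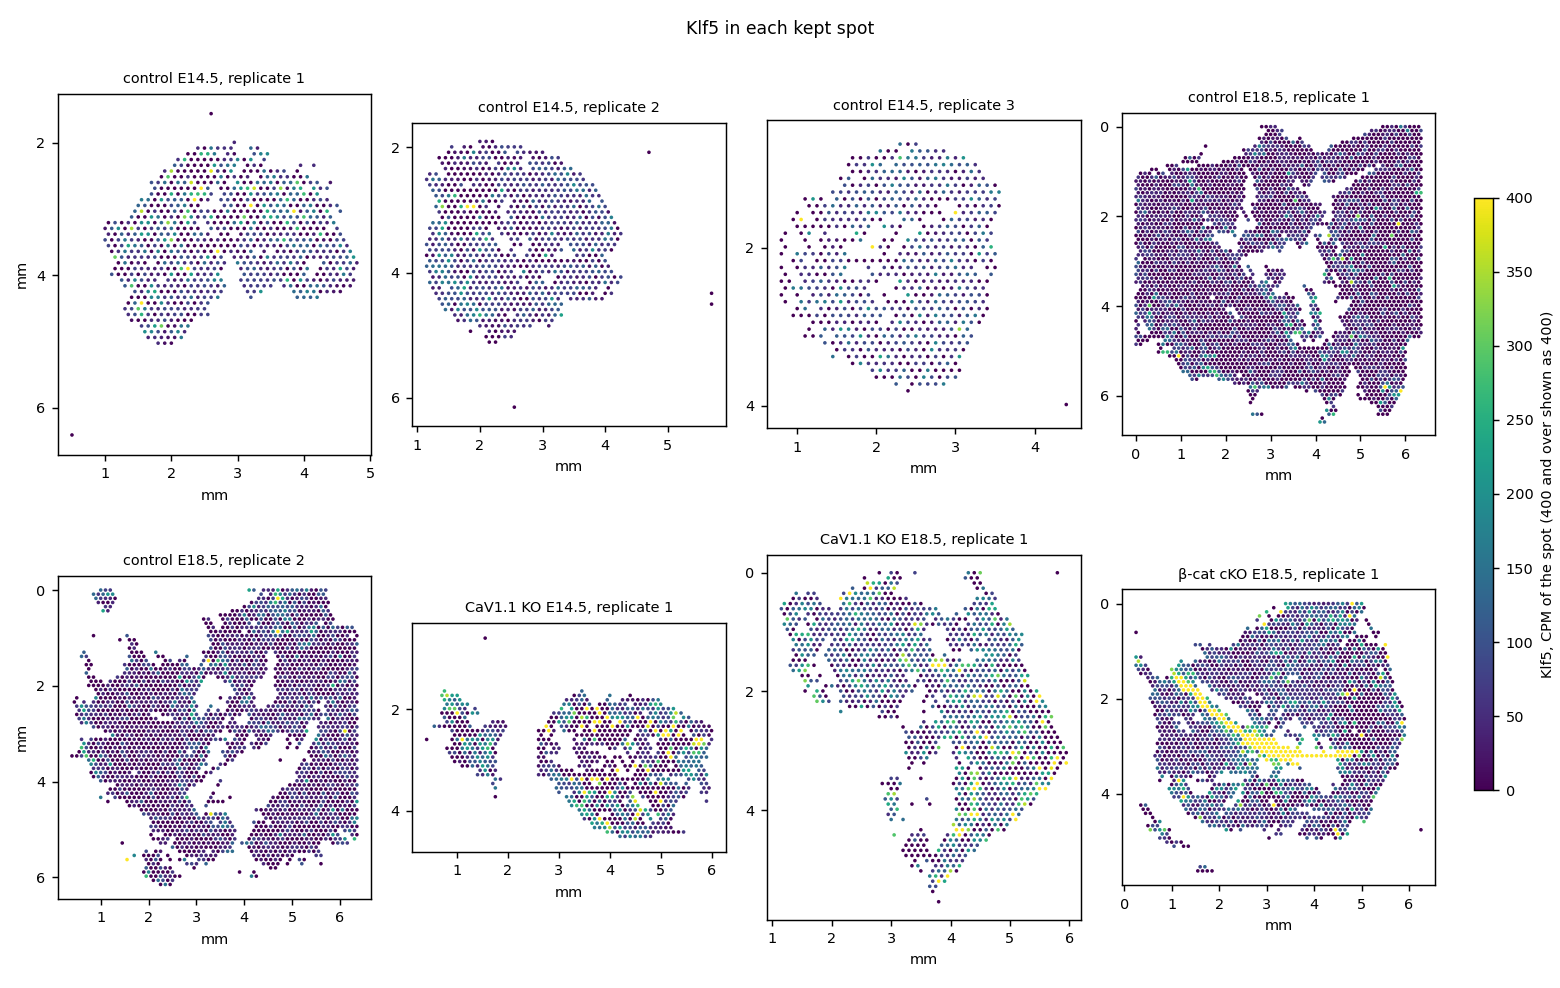
*Klf5* in each kept spot of the 8 sections, drawn to scale in mm with color for CPM from 0 to 400 and above. In the cKO a strip of bright spots crosses the section, and the E18.5 controls are dark inside the muscle. The E18.5 KO has bright spots in muscle. By marker score 15 of its 24 Klf5-rich spots were peripheral, 9 intermediate and 0 central. In shallow spots a few UMIs can exceed 400 CPM, so bright spots of the E14.5 KO can hold under 5 UMIs.

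Spots rich in markers of other tissues (the top 5% of each section) located the targets further. In tendon-rich spots *Ccn2* was 7.91 and 7.36 times the rest of the section in the E18.5 controls, 5.80 times in the cKO, 3.71 times in the E18.5 KO and 1.48 to 2.72 times in the E14.5 controls. In fibroblast-rich spots it was 5.00 and 4.21 times the rest in the E18.5 controls, and *Ccn1* 2.18 to 2.68 times in the 5 controls. *Tead4* was lower in fibroblast-rich spots of all 8 sections, at 0.26 to 0.58 times the rest. *Yap1* stayed between 0.88 and 1.27 times in the same spots. In the cKO, *Klf5* was 4.94 times the rest in smooth-muscle-rich spots and 3.88 times in mesothelium-rich spots, against 0.68 to 1.05 and 0.75 to 1.60 times in the controls. This section also holds the keratin-rich strip. Smooth muscle markers in its non-muscle spots summed to 2433 CPM against 455.6 and 825.1 in the E18.5 controls. How far these marker-rich spots overlap the strip was not tested.

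Across the 32 sums of 8 sections and 4 regions, which share libraries and scaling, the genes most like *Klf5* among 6193 genes were *Rassf7* (Pearson r = 0.78), *Traf5* (0.78), *Frem2* (0.75), *Erbb2* (0.74) and *Sike1* (0.71). Those most like *Tead4* were *Sytl2* (0.97), *Mospd1* (0.97), *Zbtb18* (0.96), *Fndc5* (0.96) and *Klhl13* (0.96). *Klf5* and *Tead4* reached 0.30 with each other. The sum of non-muscle spots in the cKO, which holds the strip of Klf5-rich spots, was the highest for *Klf5*. Its weight in the *Klf5* correlations was not tested. *Tead4* ran against the targets, with r = -0.84 for *Ccn1* and -0.79 for *Ccn2*. The sums pool both stages and muscle with other spots, between which these genes differed in opposite directions as given above. Among single muscle spots of a section, *Ccn2* followed the myotendinous collagen gene *Col22a1* with r of 0.61 and 0.68 in the E18.5 controls, 0.25 in the E18.5 KO and 0.51 in the cKO.

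Lists of pathway genes were read in the same comparisons. Of 23 Hippo pathway genes, 7 rose and 7 fell between stages (median log2 0.19 against -0.01 over all genes, of which 33.2% rose and 32.3% fell, so the Hippo counts lay near the background), with the angiomotin genes *Amotl1* (1.59) and *Amot* (1.46), whose products bind Yap1, highest and *Wwc1* (-1.41) lowest. Of 22 Yap and Taz targets 11 rose and 5 fell (median 0.46), led beside *Ccn2* and *Ccn1* by *Nuak2*, a kinase gene (2.43). Of the 6 Ccn genes 4 rose and 1 fell (median 2.49), including *Ccn5* (3.47) and *Ccn3* (3.04). Of 16 Klf genes 8 rose and 3 fell, led by *Klf9* (5.24) and *Klf15* (2.40), both glucocorticoid-responsive genes, and *Klf2* (2.09), so *Klf5* was among the few that fell. *Vgll3*, whose product binds TEAD proteins in place of Yap1, fell by 1.06 on the log2 scale. Of 6 myogenic factors 4 rose, such as *Myf6* (2.06) and *Mef2d* (1.26), and 2 fell, such as *Myog* (-1.15). With total UMIs alone as the scale, these splits became 2 higher and 17 lower for the Hippo genes, 7 and 10 for the targets, 4 and 1 for the Ccn genes, 6 and 9 for the Klf genes and 2 and 3 for the myogenic factors, and under sarcomere-gene scaling 11 of the 16 genes named for this comparison reversed.

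In the E18.5 KO, where 10.6% of all genes were higher and 15.2% lower, 0 Hippo genes were higher and 2 lower, *Amot* (-1.43) and *Frmd6* (-0.44). Of the Yap and Taz targets 2 were higher and 2 lower (median 0.04), among them *Ccdc80* (0.63) and *Ankrd1* (-2.16), a stress-responsive gene of the sarcomere. Of the Ccn genes 3 were lower, *Ccn3* (-1.87), *Ccn2* and *Ccn4* (-0.74), and of the Klf genes 2 were higher and 4 lower, the latter including the flow-responsive *Klf4* (-1.5) and *Klf2* (-1.21). The myogenic factors *Myog* (0.66) and *Mef2d* (-0.90) differed in opposite directions. In the E14.5 KO, *Gadd45a* (1.28) was higher and *Nt5e* (-1.48), *Ccn3* (-2.25) and *Myf6* (-1.47) lower. There 0 of 23 Hippo and 0 of 16 Klf genes were called, near the share of 2.08% over all genes. In the cKO 3.18% of all genes were higher and 5.62% lower. Of the targets 2 were higher there, *Foxf2* (2.99, at under 1 CPM on average) and *Ankrd1* (0.98), and 2 lower, such as *Crim1* (-0.82). *Amot* (-0.61), *Klf15* (-0.78) and *Mef2a* (-0.49) were lower and the cadherin gene *Fat4* (0.55) higher. *Ankrd1* thus differed between KO and cKO by -3.14 (edgeR adjusted p = 0.00127), as did *Ccn3* (-1.97), *Ccn4* (-0.95), *Crim1* (0.91), *Gadd45a* (0.89), *Amot* (-0.82) and *Klf2* (-0.79). The KO effect differed between stages for *Amot* (-1.91), *Klf11* (1.02) and *Gadd45a* (-0.84), but without E14.5 control 3 this comparison called 0 genes in all, where it called 949 with that section. Without TMM scaling *Frmd6* in the E18.5 KO turned to 0.10, and 16 of 23 Hippo genes and 15 of 22 targets were called higher there, where the median of all genes stood at 0.54. Sarcomere-gene scaling reversed 5 of the 12 genes named for the E18.5 KO (*Frmd6*, *Ccn2*, *Ccn4*, *Klf2* and *Mef2d*), 1 of 8 for the cKO (*Mef2a*), 2 of 7 for the KO against the cKO (*Amot* and *Klf2*) and 1 of 3 for the KO effect between stages (*Gadd45a*).

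Along the fibers, 11.7% of all genes were higher in the center and 8.62% lower at E14.5, and 11.7% and 9.12% at E18.5. Of 21 Yap and Taz targets, 3 were higher in the center and 9 lower at E14.5 (median -0.29 against 0.01 over all genes), and 1 and 9 at E18.5 (median -0.19). Beside *Ccn2* these included *F3*, the gene of tissue factor (-1.10 at both stages), and *Nt5e* (-0.75 at E18.5). Among the myogenic factors 5 of 6 were higher in the center at E14.5, such as *Myf6* (1.36), *Myf5* (0.82) and *Mef2d* (0.63), and 3 of 6 at E18.5, *Myf5* (0.74), *Myf6* (0.46) and *Myog* (0.30). *Vgll3* was higher in the center at both stages (0.61 and 0.31), and *Wwtr1*, the gene of Taz, at E14.5 (0.25). Of the Hippo genes, *Fat4* (-1.02), *Amot* (-0.91) and *Mob1b* (0.47) differed most at E14.5, and *Ptpn14* (-0.67), *Fat4* (-0.66) and *Dchs1* (-0.47) at E18.5. *Klf15* was higher in the center at E14.5 (0.96), while *Klf14* (-0.53 and -0.40) and, at E18.5, *Klf16* (-0.50) were peripheral like *Klf5*. *Ccn4* was peripheral too (-0.79 and -1.15). None of the 15 and 14 genes named for the regions of the E14.5 and E18.5 controls reversed under either other scaling.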

How the data were processed

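Visium libraries of 8 sections were analysed. UMI counts of every spot were deposited as Space Ranger wrote them (per the file headers 2.0.0 in 3 sections and 2.0.1 in 5) against mm10 with a mouse probe set, without normalization by the authors. Spots with at least 1000 UMIs were kept. Muscle spots lay above Otsu's threshold, set in each section, of the mean log-normalized value of 9 sarcomere genes (per 10000 UMIs). The regions were the top 15% by endplate and by myotendinous score. UMIs were summed per section, or per section and region, since spots of a section are not replicates and the spot-wise test of the study was not used. The sums were tested with the quasi-likelihood F test of edgeR 4.0.16 in R 4.3.3 (filterByExpr, TMM, Benjamini-Hochberg over all genes tested, threshold 0.05). Summed muscle was fitted with 5 groups in 1 fit, and regions, and muscle against other spots, with the section as a block, since these sums come from the same embryo. The test was also run on simulated counts that gave controls and mutants the same spread. Such counts cannot show whether a single mutant section varies as the controls do.

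Replicate numbers do not pair sections, which come from different embryos, so summed muscle has no block. Embryos are the replicates. The 8 genes and all gene lists were chosen with earlier results of these data known. Beside the 8 genes, the text names the 3 called genes of each pathway list with the largest absolute change in the muscle comparisons and in the regions of controls, and the 5 genes most like *Klf5* and *Tead4* by Pearson r of log2 CPM over 32 region sums, among genes averaging 5 or more on that scale. The Klf5-rich spots, the spots far from the muscle edge, the spots without keratin UMIs, the scaling to total UMIs alone and the tests of regions between genotypes were added after the data were seen. Alternatives included DESeq2 1.42.0, other scalings, filters, regions and leaving out each control. Genes of the region scores stayed in the region fits and in the adjustment of p, and were left out of the counts of genes tested and called. Moran's I scores per gene, which Space Ranger also wrote, were not used.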

Additional observations from a re-analysis of the deposited data

Results flagged for a closer look

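In controls the regional difference (center minus periphery, log2) itself changed between stages for 4 of the 8 genes by the edgeR interaction test. The change from E14.5 to E18.5 was -1.04 for *Klf5*, which was peripheral by 1.38 at E18.5 and by 0.33 at E14.5 on the log2 scale. It was -0.50 for *Tead3*, which was level at E14.5 (0.01) and peripheral at E18.5 (-0.48), and this call was lost in 9 of 14 alternatives. The change was -0.55 for *Tead4*, from 0.76 to 0.21, and became 0.01 with regions set by distance from other spots. For *Ccn1* it was 0.78, from -0.81 to -0.03, and this call held in 12 of 14 alternatives, with values of 0.34 to 0.88.

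In the β-cat cKO the regional difference of *Klf5* was 0.85 smaller in size than in the E18.5 controls (edgeR adjusted p = 0.00130, 1 section against 2), and 0.37 (adjusted p = 0.675) with regions set by distance.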

How the results depend on the processing

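The 8 genes gave 1648 values under the alternatives. Of these 1488 kept their call, 84 lost the call, 53 gained one and 23 reversed, and in 82 of the kept values the sign changed where neither value was called. The causes of the changes were not tested beyond what a setting's construction shows (fewer spots or sections).

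Without TMM scaling (total UMIs only) the stage value turned to -0.36 for *Tead1*, -0.50 for *Yap1* and -0.68 for *Tead3*, *Yap1* turned to 0.52 in the E18.5 KO and to 0.50 in the KO effect between stages, and *Klf5* to -0.24 in E18.5 muscle against other spots (-0.0637 for the top against the bottom of the muscle signal). Genes called were then 7995 for the E18.5 KO, 2826 for the cKO, 4653 for the KO between stages and 2584 for KO against cKO, with 3 of the 8 genes called between stages of KO, 1 in the E14.5 KO and 1 for KO against cKO. With the 9 sarcomere genes as scale, the stage values were -0.89 (*Ccn1*), -0.49 (*Ccn2*), -2.81 (*Tead1*), -3.14 (*Tead3*) and -2.96 (*Yap1*), the E18.5 KO values 1.02 (*Ccn1*), 0.51 (*Ccn2*), 0.84 (*Tead1*), 1.32 (*Tead3*), 1.07 (*Tead4*) and 1.38 (*Yap1*), *Yap1* was 0.82 in the KO effect between stages and *Tead2* 0.82 for KO against cKO. Genes called were 4939 (E14.5 KO), 12468 (E18.5 KO), 3886 (cKO), 4715 (KO between stages), 8482 (KO against cKO), 946 (cKO regions) and 762 (regions between stages), and of the 8 genes 3, 7, 4 (KO between stages), 6 (KO against cKO) and 2 (cKO regions). The median of all genes moved by 0.56 (E14.5 KO), 1.40 (E18.5 KO), 0.52 (cKO), 0.86 (KO between stages) and 0.89 (KO against cKO). Splits into higher and lower, first with TMM, then with total UMIs, then with sarcomere genes, were 79 and 229, a split that moved less with total UMIs, and 4783 and 156 (E14.5 KO), 1568 and 2251, 7243 and 752, 12366 and 102 (E18.5 KO), 471 and 834, 2258 and 568, 3652 and 234 (cKO), 329 and 620, 4405 and 248, 4661 and 54 (KO between stages), 425 and 657, 2178 and 406, 8262 and 220 (KO against cKO). For regions they were 1662 and 1221, 1110 and 1667, 616 and 2124 (E14.5 controls), 1657 and 1291, 1143 and 2008, 540 and 2261 (E18.5 controls), 405 and 323, 243 and 403, 444 and 183 (E14.5 KO), and with sarcomere genes 93 and 357 against 162 and 190 (E18.5 KO) and 338 and 608 against 755 and 754 (cKO). For muscle against other spots, 3365 and 2416 became 1632 and 4307 (E14.5), and 4495 and 3731 became 1647 and 9255 (E18.5) with total UMIs.

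DESeq2 called 731 genes in the E14.5 KO, 1582 for the KO between stages, 1861, 1369, 322, 198 and 562 in the regions of E14.5 controls, E18.5 controls, E14.5 KO, E18.5 KO and cKO, and 536 for regions between stages. Of the 8 genes it called 2 in the E14.5 KO, 4 in the cKO, 1 for the KO between stages and 1 in cKO regions. Without a count filter, 536 genes and 1 of the 8 were called in the E14.5 KO and 4 of the 8 in the cKO. In the muscle spots above the median signal 463 genes and 1 of the 8 were called in the E14.5 KO, and within the same stage 1 of the 8 in the E14.5 KO and 1 in the cKO. Over 210 µm from other spots the counts were 180 (E14.5 KO), 1714 (E18.5 KO), 861 (cKO), 101 (KO between stages) and 689 (KO against cKO), with 1 of the 8 in the E18.5 KO and 1 in the cKO.

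Regions set by distance gave *Klf5* 0.28 and *Ccn1* 0.44 in the E18.5 KO and *Tead4* 0.0064 between stages, and called 1651, 5092, 23, 2013 and 3654 genes (E14.5 controls, E18.5 controls, E14.5 KO, E18.5 KO, cKO), with 3 of the 8 in E14.5 controls, 0 in the E14.5 KO and 2 between stages. Regions of 25% of spots called 1124 genes in the E14.5 KO and 995 genes and 2 of the 8 in the cKO.

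A replicate block in the muscle sums (the numbers name sections of different embryos, and deviations of same-numbered controls correlated at -0.33 in both pairs) left 0 genes called in the E14.5 KO and for the KO between stages, 81 genes and 0 of the 8 in the cKO and 533 genes for KO against cKO. *Klf5* then stood at -0.43 between stages (adjusted p = 0.0607) and 0.65 in the cKO (0.156). Without the section block, regions gave 1215, 731, 20, 31 and 187 genes in the order above and 119 between stages, with 3 of the 8 in E18.5 controls, 0 in both KO sections, 1 in the cKO and 0 between stages.

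Leaving out 1 control at a time, genes called ranged from 8534 to 9262 (stage), 65 to 391 (E14.5 KO), 2896 to 3773 (E18.5 KO), 576 to 1461 (cKO), 0 to 1105 (KO between stages), 512 to 1434 (KO against cKO), 1602 to 2866, 1426 to 3129, 683 to 903, 303 to 414 and 1398 to 1642 (regions in the order above), 653 to 1262 (regions between stages), 3102 to 6047 (muscle against other spots, E14.5) and 5882 to 8097 (E18.5). Of the 8 genes, 5 to 6, 0 to 2, 2 to 4, 0 to 3, 0 to 0 and 0 to 0 were called in the 6 muscle comparisons, 4 to 5, 3 to 5, 2 to 3, 2 to 2, 4 to 4 and 3 to 5 in the 6 region comparisons, and 6 to 7 and 4 to 6 for muscle against other spots. Leaving out E14.5 control 3 gave the lowest counts in 4 mutant comparisons (65 for the E14.5 KO, 576 for the cKO, 0 for the KO between stages, 512 for KO against cKO). Leaving out E14.5 control 2 gave 149 for the KO between stages, 1602 and 653 for regions at E14.5 and between stages, and 3102 for muscle against other spots. Leaving out E14.5 control 1 gave 1810 and 727 for the same 2 region comparisons, and leaving out E18.5 control 2 gave 826 for the cKO and 1426 for regions at E18.5. *Tead3* between stages in regions was lost without E14.5 control 2 or 3 or either E18.5 control. Depth limits *Ccn2*, *Ccn1* and *Tead3* most, which rested on as few as 243, 451 and 554 UMIs per section.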
